A study of Mus musculus with 2 samples.

Results

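The proteasome subunit genes are 43 of the 16302 genes listed for niche astrocytes in culture, taken from either WT or β-arr1 KO mice. They were chosen by symbol alone, by a rule that used none of their values but was set with earlier results of these data known. The rule took every Psma, Psmb, Psmc, Psmd, Psmf and Psmg gene with a number in its symbol, together with Psme3 and Psme4, and left out the inducible subunits Psmb8, Psmb9 and Psmb10. One of the 43, Psmc3ip, matches by symbol only, since it encodes a partner of the recombinases of meiosis and not a part of the proteasome. Of the 43 genes, 42 had at least 1 FPKM (fragments per kilobase of transcript, scaled to the mapped fragments of the library) in the higher of the libraries and were analysed. The testis-type core subunit gene Psma8 was the exception, at 0.826 in WT vs. 0.669 FPKM in β-arr1 KO.

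The proteasome degrades proteins that have been marked with chains of ubiquitin. Its 20S core is a barrel built of rings of alpha and beta subunits with the cutting sites inside, and its 19S cap binds the ubiquitin chain, removes it, unfolds the protein with a ring of ATPases and threads it into the core. Each subunit enters the particle in a fixed number, cells can raise the whole gene set together through the transcription factor Nfe2l1, and in astrocytes aggregates of mutant GFAP are known to impair the particle.

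Astrocytes were cultured from the adult dentate gyrus (DG) of C57BL/6 mice (C57BL/6J in the methods of the study), either WT or β-arr1 KO, the latter carrying a whole-body loss of the β-arrestin 1 gene Arrb1. No treatment is described, the exact age was not given in the sources used here, and 1 library of pooled cDNA was sequenced per genotype. With 1 library each there is no error between replicates, no test of the genotype was possible, and no p-value is given anywhere. Ratios are FPKM in β-arr1 KO over FPKM in WT, and the intervals beside them are 95% intervals for counting error only, estimated from about 9.38 M (WT) and 9.51 M (β-arr1 KO) mapped fragments. Genes were counted as higher or lower when this ratio was above 3/2 or below 2/3, the limits used in the study.

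Arrb1 was listed at 7.62 in WT vs. 2.72 FPKM in β-arr1 KO (ratio 0.358), and the astrocyte gene Gfap at 189 and 192 FPKM. All 8 astrocyte markers examined were listed in both libraries, 4 of them with a ratio above 3/2, with a summed level of 299.6 in WT vs. 343 FPKM in KO. Markers of other cells were present too, with 1 of 7 microglial genes below 2/3 and, in spite of a near-level sum, 3 of the 4 listed fibroblast and mural genes below 2/3. Summed levels in WT and KO were 419 and 334 FPKM for 7 microglial genes, and 2911 and 2710 FPKM for the 4 of 5 fibroblast and mural genes listed. Most of the latter sums came from Acta2 alone, with a mean of 2473 FPKM over the libraries and a log2 ratio of -0.006. The 8 oligodendrocyte lineage markers summed to 85.5 and 126.7 FPKM, 5 of them were above 3/2, and Mog was not listed in WT. Sums for 5 endothelial markers were 40.8 and 28.6 FPKM, for 6 neuronal markers 48.7 and 64.7 FPKM, and for 4 cycling-cell markers 83.7 and 93.1 FPKM. Of the endothelial markers 1 was above 3/2 and 1 below 2/3, 2 neuronal markers were above 3/2, and no cycling-cell marker was outside these ratios. The part of this cell mixture in the ratios below was not tested, and in such bulk samples fewer cells of a type and less RNA per cell cannot be told apart.

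Most proteasome genes had nearly the same level in both genotypes. The 42 genes summed to 2640 in WT vs. 2717 FPKM in β-arr1 KO, or 1.03 times the WT sum. Their median log2 ratio was 0.03, beside 0.02 over the 12171 genes listed in both libraries, and the middle 50% of their log2 ratios spanned 0.18, beside 0.37 over all those genes and 0.31 over those with a mean of at least 5 FPKM. The ratio was within 10% of equality in 23 of the 42 genes (54.8%), beside 46.1% of genes with a mean of at least 5 FPKM. It was above 1 in 28 genes and below 1 in 14. These backgrounds are not matched in level, since the median in WT was 58.0 FPKM for the members. It was 16.2 FPKM for genes with a mean of at least 5 FPKM, and the part of level in the narrower spread was not tested. The sums take in a neighbouring gene in the Psma1 row of WT and in the Psmd4 row of KO, as given below. The 27 genes with the same row bounds in both libraries summed to 1909 in WT vs. 1965 FPKM in KO, a ratio of 1.03.

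Outside the limits were 5 of the 42 genes (11.9%), while 17.8% of all 12646 genes analysed and 10.5% of genes with a mean of at least 5 FPKM were outside them. Those shares count every gene listed in a single table as outside, whereas all 42 members were listed in both. Among genes listed in both tables the share was 14.6%, with a mean of at least 5 FPKM it was 8.78%, and with 1 FPKM or more in both it was 11.8%, close to that of the members. The core subunit genes Psma3, Psma4 and Psma5 were higher in β-arr1 KO, against a background of 9.56% of genes higher. The core subunit gene Psma1 and the cap chaperone gene Psmd9 were lower, against a background of 8.26%. None of the 5 reached a ratio of 2 or 1/2. The counting interval left out equality in 15 of the 42 genes (35.7%), with 11 above 1 and 4 below. These include Psma1 and Psmd4, whose intervals compare rows of unlike extent, as given below. The share over other genes was larger. The interval left out equality in 40.6% of the 11738 genes listed in both tables with an annotated length. It likewise did so in 40.6% of the 9958 of them whose summed fragments lay in the range of the members, 114 to 5995.

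**Figure D1:**
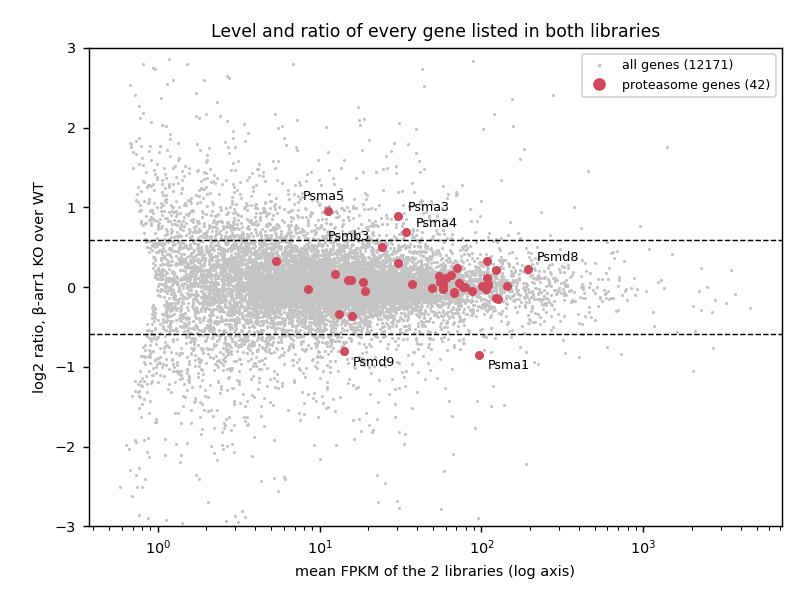
Mean FPKM of both libraries (log axis) against the log2 ratio of β-arr1 KO over WT for the 12171 genes listed in both (grey points, with 43 genes beyond ±3 not drawn) and the 42 proteasome genes (red points). Dashed lines mark ratios of 3/2 and 2/3, outside which lie Psma3, Psma4, Psma5, Psma1 and Psmd9.

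The catalytic beta subunits were at near-equal levels. Psmb5, which carries the chymotrypsin-like site, was at 71.1 in WT vs. 73.6 FPKM in KO (ratio 1.03, interval 0.910 to 1.18). Psmb6, with the caspase-like site, was at 100.4 and 101.4 FPKM (ratio 1.009). Psmb7, with the trypsin-like site, was at 115 in WT vs. 133 FPKM in KO, and its ratio of 1.16 had an interval of 1.07 to 1.26 that left out equality. None of the catalytic genes was outside the limits, and together they summed to 286 in WT vs. 308 FPKM in KO.

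Among the beta subunits without a catalytic site, Psmb4 was the highest, at 143 in WT vs. 145 FPKM in KO. Psmb1 was listed at 129 and 117 FPKM (ratio 0.908, interval 0.832 to 0.992) and Psmb2 at 108 and 107 FPKM. The ratios of these genes lay closer to equality than that of Psmb3, which was far below them at 20.03 in WT vs. 28.4 FPKM in KO. Its ratio of 1.42 (interval 1.20 to 1.67) was the nearest to the upper limit among genes within the limits. Over the 7 beta genes the median log2 ratio was 0.02. Psmb11, the thymic beta subunit gene, was listed in neither library.

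The alpha subunits, which form the outer rings and the gate of the core, varied most between genotypes of all groups. Psma2 was at 134 in WT vs. 120 FPKM in KO (ratio 0.900, interval 0.855 to 0.947), Psma6 at 104 and 113 FPKM (ratio 1.08) and Psma7 at 108 and 110 FPKM (ratio 1.02). The other 4 analysed alpha genes made up all but one of the proteasome genes outside the limits. Psma3 was at 21.5 in WT vs. 39.8 FPKM in KO, a ratio of 1.85 with an interval of 1.67 to 2.06. Psma4 was at 26.3 and 42.4 FPKM, a ratio of 1.61 (1.37 to 1.90), and Psma5 at 7.64 and 14.8 FPKM, a ratio of 1.94 (1.46 to 2.59) that rested on about 75 fragments in WT and 155 in KO. These higher ratios belonged to the analysed alpha genes with the lowest levels. Psma1 was lower in KO, at 124 in WT vs. 68.8 FPKM in KO (ratio 0.554, interval 0.503 to 0.609). Its ratio and interval compare rows of unlike extent, so the interval is not one for Psma1 alone. The median log2 ratio of the 7 alpha genes was 0.12, whereas their summed level was 526 in WT vs. 509 FPKM in KO. Over the whole core, 14 genes summed to 1213 in WT vs. 1214 FPKM in KO. In the alpha and core sums the WT row of Psma1 also takes in the gene Copb1, which the KO row does not. These sums are therefore not like for like.

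**Figure D2:**
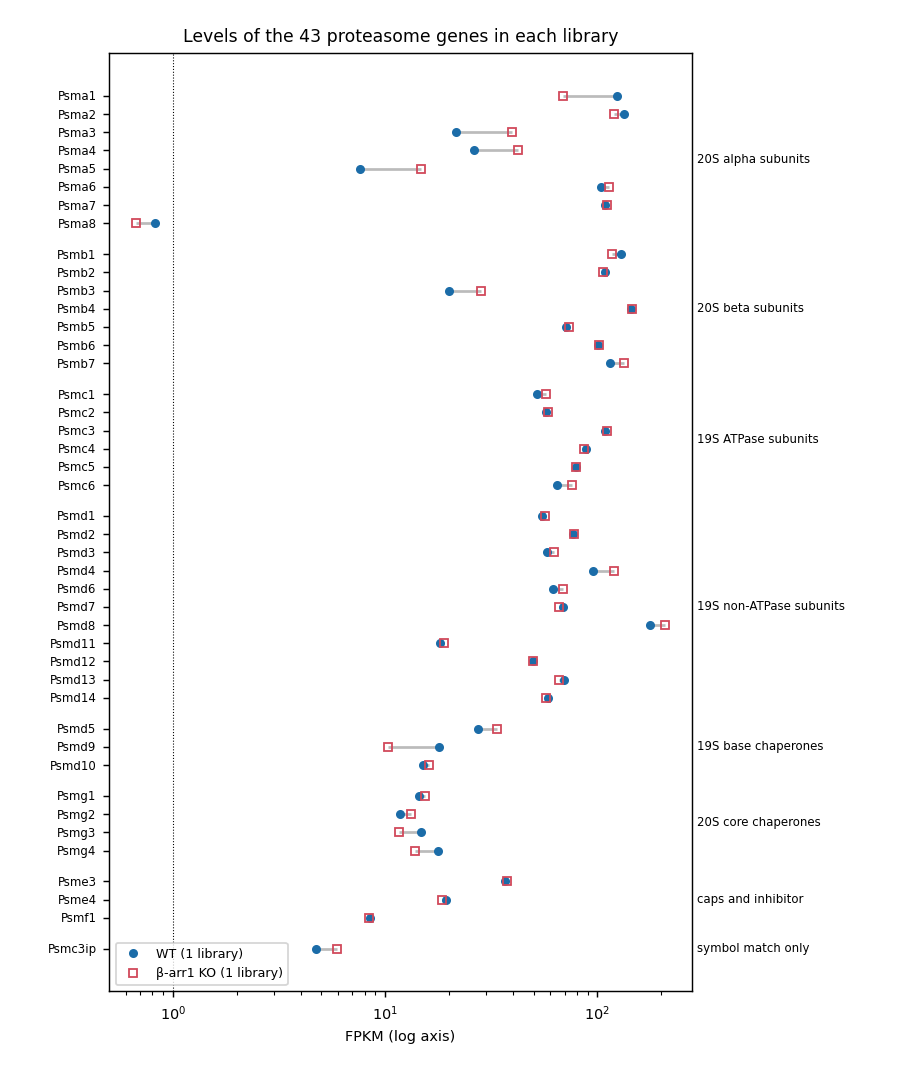
FPKM of each of the 43 proteasome genes (log axis) in the WT library (filled blue circles) and the β-arr1 KO library (open red squares), grouped by role, with a dotted line at 1 FPKM. The paired points nearly coincide for most genes, and stand apart for Psma1, Psma3, Psma4, Psma5, Psmb3 and Psmd9.

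The values of Psma1 rested on rows of different extent. In WT the Psma1 row spanned chr7:121359073-121419630 (mm9), which takes in the whole of the neighbouring gene Copb1, and Copb1, a coatomer subunit of Golgi transport vesicles, had no row of its own. In KO, Psma1 was listed for chr7:121408064-121419630, close to the extent of the annotated gene, and Copb1 was listed separately for chr7:121359073-121398208 at 47.5 FPKM. The summed level of the stretch was 124 in WT vs. 116 FPKM in KO, a ratio of 0.936, which lies within the limits. The lower value of Psma1 in KO thus went with the split of 1 row into a pair of rows, and a level of Psma1 apart from Copb1 cannot be given for WT.

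The reverse held for Psmd4, the ubiquitin receptor of the 19S cap. WT listed it at 95.7 FPKM for chr3:94836627-94846486 and the lipid kinase gene Pip5k1a separately at 23.5 FPKM, while the KO row of Psmd4 spanned chr3:94836627-94910825, took in Pip5k1a and stood at 119 FPKM. The ratio of the Psmd4 rows was 1.25, with an interval of 1.17 to 1.33 that also compares rows of unlike extent. The ratio of the summed rows was 1.00, from 119.1 in WT vs. 119.5 FPKM in KO.

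**Figure D3:**
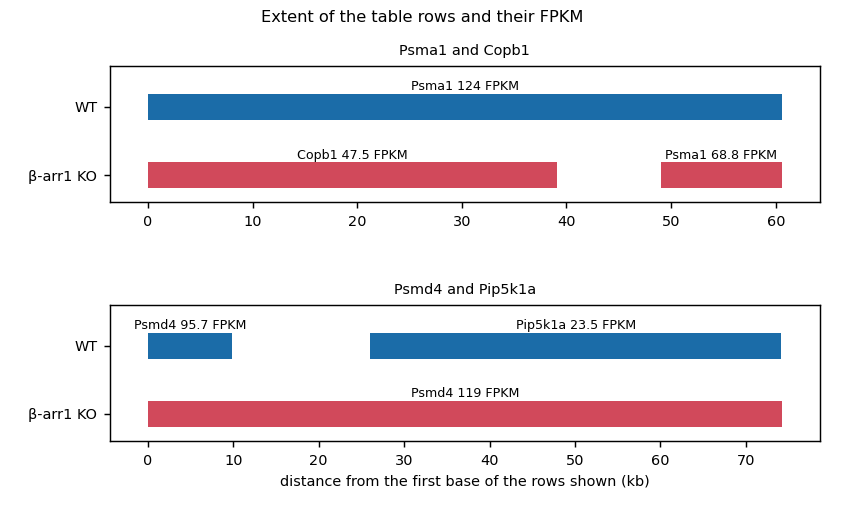
Extent of the rows that cover Psma1 and Copb1, and Psmd4 and Pip5k1a, in the WT table (blue) and the β-arr1 KO table (red), in kb from the first base shown, with the FPKM of each row. In each panel a single row in one table covers the place of a pair of rows in the other, and the summed FPKM was 124 and 116, and 119.1 and 119.5, in WT and KO.

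Across all members, 27 of 42 rows had the same start and end in both tables and 15 did not. Only Psmd9 of the 27 was outside the limits (3.70%, against a background of 13.8% for genes with the same bounds), and 4 of the 15 were (26.7%, against 15.8%). These backgrounds include genes with a mean below 5 FPKM, whereas all 42 members reached that mean. Among genes listed in both tables, that minimum alone took the share from 14.6% to 8.78%. Apart from Psma1, Psmd4, and Psmd11, whose rows differed by 7960 bases, the differing bounds were small. They amounted to 14 bases for Psma3, 7 bases for Psma4 and 4 bases for Psma5, and to at most 297 bases in the rest.

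Rows of some members overlapped those of other genes in part, and the sources used here do not say whether the libraries kept the strand, so reads in the shared bases cannot be assigned with certainty. Psma3 overlapped 3110056K07Rik, at 5.55 in WT vs. 2.91 FPKM in KO, and the summed rows had a ratio of 1.58, still above 3/2. Psmb4 lay inside the row of Selenbp1 (1.396 and 1.416 FPKM), and Psmc3ip met Mlx (11.9 and 12.4 FPKM). Psmd1 overlapped Htr2b, listed in WT only at 0.441 FPKM, and Psmd11 overlapped Cdk5r1 in its WT extent, listed in KO only at 0.952 FPKM. Psmg2 met Cep76 in KO, and Cep76 was at 3.54 and 4.19 FPKM. None of Selenbp1, Mlx and Cep76 was outside the limits. In contrast, 3110056K07Rik was below 2/3, at a ratio of 0.525 (interval 0.311 to 0.869), opposite in direction to Psma3.

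Psma3, Psma4 and Psma5 shared another feature, which the choice of genes did not use and which was looked at after the data were seen. Each has an almost identical, intronless copy of its coding sequence elsewhere in the mouse genome. Such copies can draw reads from the gene, and the sources used here do not say how reads with several matching places were divided. A copy was counted where a single match covered at least 80% of the coding sequence at 95% identity or more in the mm9 genome, and 9 of the 42 genes had one (Psma2, Psma3, Psma4, Psma5, Psmb3, Psmb5, Psmc1, Psmd2 and Psmd11). Of these, 3 were outside the limits (33.3%), beside 15.9% of the 642 genes with a copy in the whole table. Of the 33 members without a copy, 2 were outside them (6.06%), beside 14% of the 10971 genes without one. Both backgrounds again include genes with a mean below 5 FPKM, unlike the members.

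Psma5, which had the highest ratio of the members and the lowest level of the analysed core genes, has a pair of such copies, on chromosome 10 (98.9% identity, over the annotated gene Gm8394) and on chromosome 4 (97.5%, the pseudogene Gm12989). The first 90 bases of its coding sequence are shown with the same stretch of each copy to show how little tells them apart. Bases that differ from Psma5 are in capitals.
Psma5 coding bases 1 to 90: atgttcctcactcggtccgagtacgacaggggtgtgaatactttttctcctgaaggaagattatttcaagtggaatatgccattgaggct
copy, chr10:84776314-84776403, plus strand: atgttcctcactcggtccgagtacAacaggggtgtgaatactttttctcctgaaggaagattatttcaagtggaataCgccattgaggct
copy, chr4:135272427-135272513, minus strand: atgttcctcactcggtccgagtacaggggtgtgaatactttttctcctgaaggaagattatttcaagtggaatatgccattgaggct
The chromosome 10 copy differs at 2 of the 90 bases, and the chromosome 4 copy lacks 3 bases and matches at the rest. Over the whole coding sequence of 726 bases the first copy has 8 mismatches and no gap.

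Psma3 has 3 copies. That on chromosome 6 (the pseudogene Gm13835) matches 665 of the 768 coding bases with no mismatch, and those on chromosomes 14 and 16 are 96.5% identical. The stretch below begins at coding base 104, the first that all of them cover, with differing bases in capitals.
Psma3 coding bases 104 to 193: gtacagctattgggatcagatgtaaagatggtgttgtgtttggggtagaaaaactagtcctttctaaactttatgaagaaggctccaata
copy, chr6:31092554-31092643, minus strand: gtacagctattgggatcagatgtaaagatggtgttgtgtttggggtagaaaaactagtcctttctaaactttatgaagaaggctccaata
copy, chr16:45411797-45411886, plus strand: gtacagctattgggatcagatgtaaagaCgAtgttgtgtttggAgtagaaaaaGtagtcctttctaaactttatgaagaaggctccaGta
The chromosome 6 copy is identical to Psma3 here, and the chromosome 16 copy differs at 5 bases. No row of either table covered the places of the Psma5 and Psma3 copies, so no level can be given for them.

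The level of a core gene also differed between the classes. The 8 core genes without a copy lay between 100.4 and 143 FPKM in WT, a range of 1.43-fold, with a median of 111 in WT vs. 112 FPKM in KO. In KO they lay between 68.8 and 145 FPKM, a range of 2.11-fold. The lowest there was Psma1, whose WT row takes in Copb1, and without Psma1 the other 7 spanned 1.43-fold in each library. The 6 core genes with a copy lay between 7.64 and 134 FPKM in WT and between 14.8 and 120 FPKM in KO. Their medians were 23.9 in WT vs. 41.1 FPKM in KO. All 4 analysed core genes below 50 FPKM in both libraries had a copy (Psma8, which was not analysed, has none), whereas Psma2, at 134 FPKM with a copy of 95.3% identity, and Psmb5, at 71.1 FPKM with one of 98.9%, were not among them. The copy of Psma4 (96.8% identity) lies in the row of Ankhd1, at 10.6 and 8.63 FPKM, and one of the 3 copies of Psmb3 (97.4%) in that of Map3k13, at 1.099 and 0.469 FPKM. These rows carry other genes, so their values give no level for the copies inside them. The median log2 ratio was 0.60 over the 6 genes with a copy and 0.02 over the 8 without. The part of the copies in the levels and ratios was not tested, since the tables hold no reads.

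**Figure D4:**
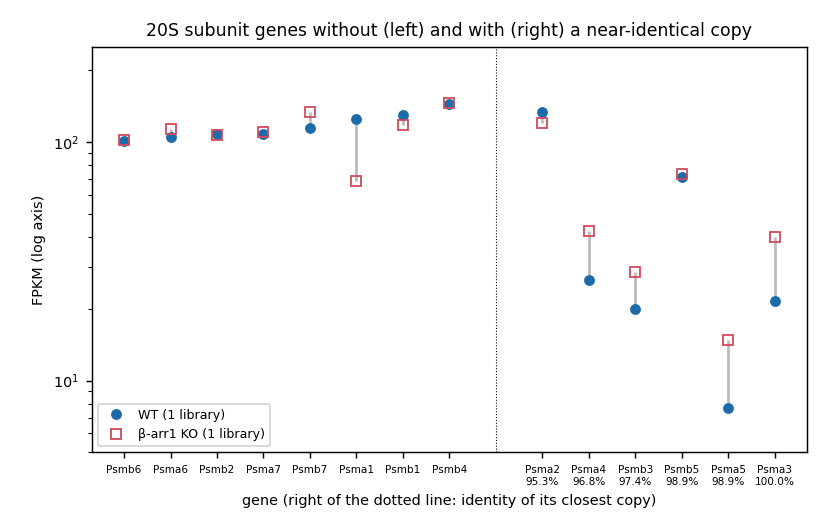
FPKM (log axis) of the 14 analysed core genes in WT (filled blue circles) and β-arr1 KO (open red squares), for 8 genes without a near-identical copy (left) and 6 with one (right, with the identity of the closest copy). The left-hand genes stay close to 100.4 to 145 FPKM except Psma1 in KO, and 4 of the right-hand genes lie below 50 FPKM in both libraries.

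The ATPases of the 19S cap, which unfold the substrate and open the core, were even between genotypes. Psmc5 was at 79.3 FPKM in both libraries, Psmc2 at 57.1 and 58.3 FPKM, Psmc3 at 108 and 111 FPKM and Psmc4 at 88.7 and 86.0 FPKM. Psmc1 was at 51.9 in WT vs. 57.3 FPKM in KO (ratio 1.104). Psmc6, at 64.4 and 76.3 FPKM, had the largest ratio of the group, 1.19 with an interval of 1.097 to 1.28. The 6 genes summed to 450 in WT vs. 468 FPKM in KO, with a median log2 ratio of 0.03, and their levels spanned 2.09-fold in WT.

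Of the 11 non-ATPase subunit genes of the cap, none was outside the limits. Psmd8, a lid subunit, was the highest of all members, at 178 in WT vs. 208 FPKM in KO (ratio 1.17, interval 1.11 to 1.24). Psmd1 and Psmd2 encode the large scaffold subunits of the base and were at 54.6 and 56.9 FPKM, and at 77.1 and 77.3 FPKM. Psmd14, the deubiquitinase that takes the chain off, was at 58.2 and 57.2 FPKM, and its inactive partner Psmd7 at 69.1 and 66.1 FPKM. Apart from Psmd8, these genes differed by less than 5% between the libraries.

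The remaining subunits of the lid were nearly as even. Psmd3 was at 57.7 in WT vs. 62.2 FPKM in KO, Psmd6 at 61.7 and 68.6 FPKM, Psmd12 at 49.9 and 49.5 FPKM and Psmd13 at 69.3 and 65.6 FPKM. The intervals of Psmd3 (1.00 to 1.16) and Psmd6 (1.00 to 1.23) just left out equality at ratios of 1.08 and 1.11. Psmd11, a lid subunit, was the lowest of the cap subunit genes among the members, at 18.0 and 18.9 FPKM (ratio 1.05). The cap components Adrm1 and Uchl5, given below, are not members. Over the 17 cap subunit genes among the members, the sum was 1239 in WT vs. 1318 FPKM in KO, a ratio of 1.064. Their median log2 ratio was 0.03. The KO row of Psmd4 in this sum also takes in Pip5k1a, which WT lists separately.

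Psmd11 too has a copy, and here a row of the tables covered it. The copy (the pseudogene Gm14048, 98.0% identity over all 1269 coding bases) lies in the row of A730017L22Rik, which was at 1.92 in WT vs. 22.7 FPKM in KO, a ratio of 11.9. The start of both coding sequences is shown for comparison, with differing bases in capitals.
Psmd11 coding bases 1 to 90: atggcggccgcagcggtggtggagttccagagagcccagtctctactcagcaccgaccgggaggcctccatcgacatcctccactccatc
copy, chr2:130706602-130706691, plus strand: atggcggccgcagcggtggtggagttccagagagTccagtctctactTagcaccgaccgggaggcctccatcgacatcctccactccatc
They differ at 2 of the 90 bases. Psmd11 itself had nearly the same level in both libraries. Whether any of the fragments in the A730017L22Rik row came from Psmd11 was not tested.

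The cap chaperones Psmd5, Psmd9 and Psmd10 bind the ATPases while the base of the cap is put together and leave before the particle is complete. Psmd9 was lower in KO, at 17.9 in WT vs. 10.3 FPKM in KO, from about 411 and 244 fragments. Its ratio was 0.573 with an interval of 0.487 to 0.673, whose upper end lies just past the lower limit. Psmd9 was the only gene outside the limits of the 24 members with equal bounds in both tables and no near-identical copy (4.17%). The backgrounds were 13.8% of genes with the same bounds and 14% of genes without a copy. Both include genes with a mean below 5 FPKM, and no background was taken for both features together. The copies were looked at after the data were seen. Its ratio stayed between 0.565 and 0.595 under the other settings tried. Psmd5 went the other way, at 27.3 in WT vs. 33.6 FPKM in KO (ratio 1.23, interval 1.12 to 1.35), and Psmd10, which encodes gankyrin, was at 15.0 and 16.0 FPKM (ratio 1.064, interval 0.864 to 1.31).

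The core chaperones Psmg1 to Psmg4 help the alpha ring to form. All were low, between 11.8 and 17.8 FPKM in WT. Psmg1 was at 14.5 and 15.4 FPKM and its partner Psmg2 at 11.8 and 13.2 FPKM, with ratios of 1.061 and 1.12. The other pair was lower in KO, with Psmg3 at 14.7 and 11.7 FPKM and Psmg4 at 17.8 and 13.9 FPKM. Their ratios of 0.792 (interval 0.577 to 1.08) and 0.780 (0.532 to 1.14) rested on 55 to 90 fragments per library, and at this depth no difference from equality was detectable.

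The alternative caps and the inhibitor were level between genotypes. Psme3, the nuclear cap that works without ATP, was at 36.7 in WT vs. 37.6 FPKM in KO. Psme4, a cap linked to acetylated histones, was at 19.3 and 18.6 FPKM, and Psmf1, which encodes the inhibitor PI31, was the lowest of them at 8.53 and 8.42 FPKM. All 3 ratios were within 4% of equality. Psmc3ip, the symbol match, was at 4.73 and 5.95 FPKM, with a ratio of 1.26 and an interval of 0.855 to 1.86.

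**Figure D5:**
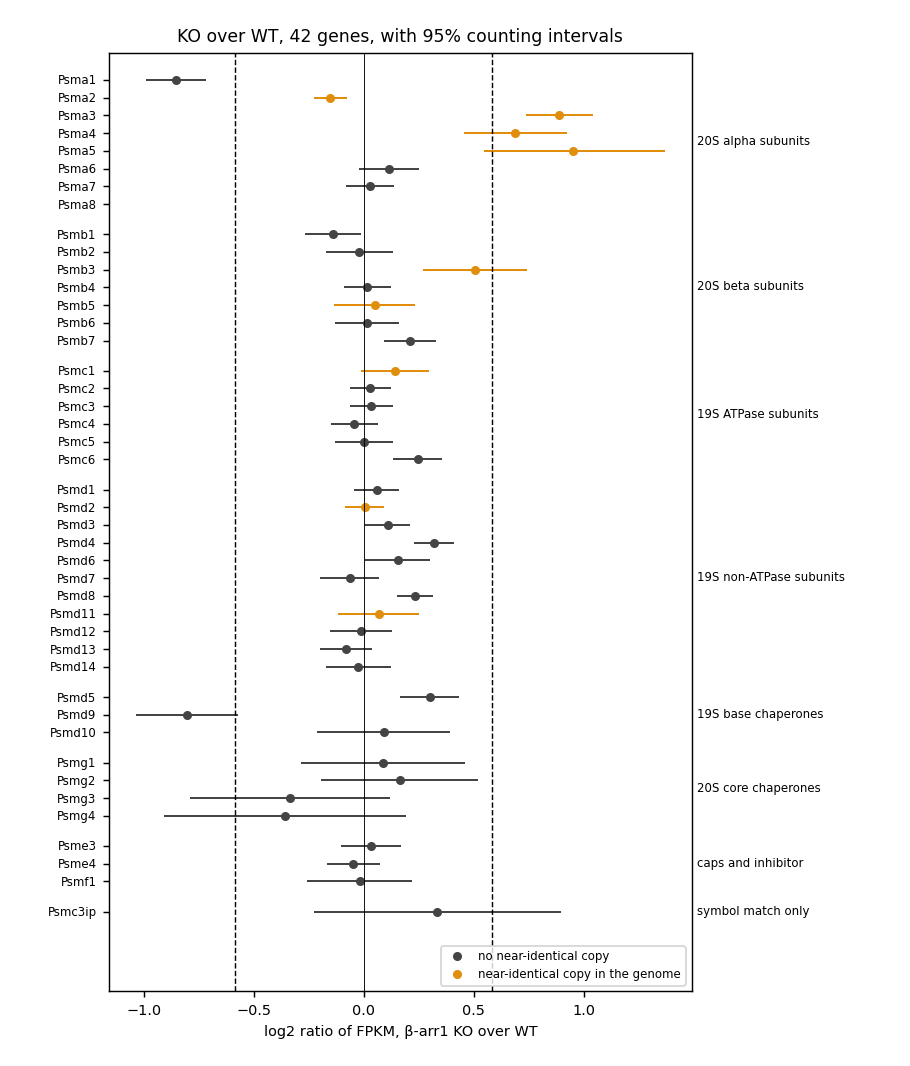
Log2 ratio of FPKM in β-arr1 KO over WT for the 42 analysed genes with 95% counting intervals (horizontal bars), grouped by role. Orange points are genes with a near-identical copy in the genome, dark points those without, and dashed lines mark ratios of 3/2 and 2/3. Psma3, Psma4 and Psma5 lie right of the upper line, and Psma1 and Psmd9 left of the lower line.

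Levels overlapped between the roles. In WT, 11 genes were above 100 FPKM, of which 9 were core subunits and the others Psmd8 and Psmc3. All chaperone, alternative cap and inhibitor genes were below 40 FPKM in both libraries. So were the core genes Psma3, Psma5 and Psmb3 and the cap gene Psmd11, as well as Psma4 in WT, with Psma5 below every chaperone in WT. Neighbours in this order whose values overlap across the libraries cannot be ranked, such as Psma7 and Psmc3, both between 108 and 111 FPKM.

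Promoters of 35 of the 43 members were found in the RefSeq table (GRCm38.p6, from 250 bases before to 50 after the start). They were searched on both strands for the antioxidant response element, bound by Nfe2l1 and Nfe2l2, as TGACNNNGC, for the NF-Y box CCAAT, and for the nuclear respiratory factor 1 site. A gene was counted where any of its promoters held the motif. The antioxidant response element was present in 6 of the 35 (17.1%), beside 13.99% of all 27025 genes with a promoter there. CCAAT was in 13 of them (37.1%), beside 41.1%. The site of nuclear respiratory factor 1, which is a different protein from Nfe2l1 despite the shared short name Nrf1, was in 4 of the 35 (11.4%), beside 1.41% of all those genes. A match of letters is a description and not evidence of binding.

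The stretches around the antioxidant response element are shown, with the motif in capitals, because they fall in genes with different ratios.
Psmd9, chr5:123228147-123228179, plus strand: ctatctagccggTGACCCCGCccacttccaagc
Psmb5, chr14:54618022-54618054, minus strand: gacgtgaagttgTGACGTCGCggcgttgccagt
Psmb6, chr11:70525336-70525368, plus strand: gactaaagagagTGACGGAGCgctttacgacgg
Psmc6, chr14:45329585-45329617, plus strand: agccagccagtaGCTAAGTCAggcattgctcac
Psmd12, chr11:107479278-107479301, plus strand: tctGCTGTGTCAcatttgcccccc
Psme4, chr11:30771756-30771788, plus strand: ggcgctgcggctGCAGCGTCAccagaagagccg
Psmd9 was lower in KO (ratio 0.573), Psmc6 stood at 1.19, and the other 4 lay between 0.967 and 1.03. The motif was not found in the windows of Psma3, Psma4 and Psma5.

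The nuclear respiratory factor 1 site fell in the promoters of 3 alpha subunit genes and 1 ATPase gene, shown with the site in capitals.
Psma2, chr13:14613102-14613137, plus strand: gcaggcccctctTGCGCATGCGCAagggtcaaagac
Psma3, chr12:70974532-70974567, plus strand: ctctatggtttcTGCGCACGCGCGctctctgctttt
Psma4, chr9:54950785-54950820, plus strand: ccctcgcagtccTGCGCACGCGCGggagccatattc
Psmc4, chr7:28050239-28050274, minus strand: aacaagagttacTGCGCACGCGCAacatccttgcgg
Of these genes, Psma3 and Psma4 were higher in KO, with ratios of 1.85 and 1.61, while Psma2 and Psmc4 stood at 0.900 and 0.970. Nrf1, which encodes the factor, was at 8.18 in WT vs. 8.06 FPKM in KO.

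The transcription factors that can raise proteasome genes were level as well. Nfe2l1 was at 110.5 in WT vs. 109.5 FPKM in KO (ratio 0.990) and Nfe2l2, the factor of the oxidative stress response, at 58.0 and 65.8 FPKM (ratio 1.13, interval 1.05 to 1.22). Of the 12 regulators examined, only the NF-Y subunit gene Nfyc was outside the limits, at 13.8 in WT vs. 8.45 FPKM in KO, with a ratio of 0.612. Nfyc has a near-identical copy in the genome.

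The inducible subunits, which replace the catalytic ones in immune-activated cells, were a small share of the total. Psmb8 was at 10.2 in WT vs. 6.86 FPKM in KO, and its ratio of 0.675 (interval 0.527 to 0.862) lay just inside the lower limit. Psmb9 was at 2.97 and 3.99 FPKM and Psmb10 at 15.6 and 18.6 FPKM, with ratios of 1.34 and 1.19. Psmb5 stood at 7.0 times the level of its inducible counterpart Psmb8 in WT and at 10.7 times in KO. The same proportion was 33.8 and 25.4 for Psmb6 over Psmb9, and 7.34 and 7.14 for Psmb7 over Psmb10. The subunits of the interferon-induced cap, Psme1 and Psme2, were at 43.6 and 40.9 FPKM and at 2.02 and 2.56 FPKM, and Psme2 has a near-identical copy.

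Of 50 related genes of the ubiquitin and proteasome pathway, 46 were listed and 5 were outside the limits (10.9%), 4 higher and 1 lower. The share over all genes was 17.8%, which includes many genes of low level. With a minimum of 5 FPKM the shares were close, at 11.4% of 44 related genes and 12.5% of 9394 genes. Usp14, a deubiquitinase that sits on the cap, was at 23.8 in WT vs. 41.6 FPKM in KO, a ratio of 1.75 with an interval of 1.56 to 1.96. Zfand5, a zinc finger protein that stimulates the proteasome, was at 6.998 in WT vs. 21.2 FPKM in KO. Its ratio of 3.03 (interval 2.64 to 3.49) exceeded that of every member. Both have the same bounds in the tables and no near-identical copy. The cap components Adrm1 and Uchl5, the ubiquitin receptor and a deubiquitinase, were at 15.8 and 14.5 FPKM and at 15.2 and 15.6 FPKM. Pomp, which guides the assembly of the core, was at 152 and 147 FPKM.

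The polyubiquitin gene Ubb was at 742 and 605 FPKM, with a ratio of 0.815. Vcp, the ATPase that extracts ubiquitinated proteins from membranes and complexes, was at 63.8 and 75.7 FPKM (ratio 1.19), and none of the 7 listed genes of its complex was outside the limits.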

How the data were processed

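Cultured DG astrocytes were profiled by RNA-seq, with 1 library per genotype. The authors aligned read pairs to mm9 (TopHat 1.4.0 in the submitters' processing notes), estimated expression with Cufflinks and deposited 1 FPKM value per gene. Genes at 0 are not listed. Both tables were joined by symbol (the first row where symbols recur), a gene missing from one was set to 0 there, and genes reaching 1 FPKM in either library were kept. Ratios carry no pseudocount. Fragments per gene were estimated from the steps of values under 0.15 FPKM and the longest GENCODE transcript, and Clopper-Pearson intervals (95%) cover counting error only. Not covered are reads matching several places. Starts had 1 base added. Copies were sought with BLAST 2.17.0 for 22255 coding sequences. Python 3.11.15, pandas 2.3.3, numpy 2.4.6, scipy 1.17.1 and matplotlib 3.10.9 were used, and the limits and intervals were tested on simulated data. Members, gene lists and rules were chosen with earlier results of these data known. Named were all members, related genes outside the limits, the inducible subunits, selected regulators, and genes overlapping or containing copies of members. Not every gene so chosen is reported here. Nrf1, Acta2, Ankhd1, Map3k13 and A730017L22Rik were named after their values were seen.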

Additional observations from a re-analysis of the deposited data

How the results depend on the processing

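No paired analysis was possible because each genotype has 1 library. The count of 5 proteasome genes outside the limits held with minimums of 0.1 or 5 FPKM, with 1 FPKM in both libraries, with pseudocounts of 0.1 and 1, under 3 rescalings of the libraries and with rows sharing a symbol summed. It was 0 with limits of 2 and 1/2 and 1 (Psmd9) among genes with the same bounds. With alternatives chosen after seeing the data, it was 4 with overlapping rows summed over both tables, where Psma1 stood at 0.936, and 2 (Psma1 and Psmd9) without genes that have a near-identical copy. Over all genes, 2254 were outside the limits, and 3965 with a minimum of 0.1 FPKM, 1177 with 5 FPKM, 1370 with 1 FPKM in both libraries, 1163 with limits of 2 and 1/2 and 1015 among genes with the same bounds. Of the 5 related genes, 3 remained with 1 FPKM in both libraries, which leaves out genes listed in one table, and the count was 3 with limits of 2 and 1/2. It was 6 after rescaling by the median ratio or by the upper quartile, where Psmb8 fell below 2/3. The median log2 ratio of the members lay between 0.01 and 0.04 throughout. The intervals of 13 genes, in place of 15, left out 1 with the shortest protein-coding transcript. Depth limits most Psmc3ip, Psma5 and the core chaperones, with 49 to 155 fragments per library, and the lack of replicates limits every ratio.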
